A study of Rattus norvegicus with 16 samples.

Results

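The genes described here are 9 p53 target and growth arrest genes of the rat kidney: Cdkn1a, Mdm2, Ccng1, Gadd45a, Sesn1, Bax, Btg2, Phlda3 and Zmat3. They were found by name among the 35849 genes of the deposited table, each in 1 row, and all 9 passed the filter on low counts in all 6 comparisons. The set was put together after Cdkn1a, Gadd45a and Sesn1 had been seen to differ between sinomenine (SIN) treated rats and rats with diabetic nephropathy (DN). For that reason no p is given for these 3 genes, nor for any member between SIN and DN, where the members are described only. The other 6 were tested in the remaining comparisons. The study asked whether SIN, an alkaloid from a medicinal vine, changes the kidney of rats with DN. Renal tissue came from 16 male Sprague Dawley rats aged 6 to 8 weeks at the start, 4 in each group. The normal group received citrate buffer and a normal diet. The other 3 groups received streptozotocin (STZ) by injection at 45 mg/kg, which destroys insulin producing beta cells, and ate a diet high in glucose and fat. Of these, rats with blood glucose above 16.7 mmol/L 1 week later were kept. They formed the DN group without SIN and the groups given SIN (20 mg/kg) or SIN (40 mg/kg) by mouth every day for 8 weeks. Every SIN rat therefore carried the STZ injection, the diet and the selection on glucose as well.

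The transcription factor p53 is held at a low level in unstressed cells because Mdm2, a ubiquitin ligase, marks it for degradation. DNA damage and other stress stabilise p53, which then switches on genes that halt the cell cycle (Cdkn1a, Btg2, Gadd45a), restrain growth signalling (Sesn1, Phlda3), limit p53 itself (Mdm2, Ccng1), open mitochondria for cell death (Bax) or act on RNA (Zmat3). Several of these genes also answer to other factors, and Cdkn1a, which encodes the cyclin dependent kinase inhibitor p21, is known in the diabetic kidney for its part in tubular growth arrest and senescence.

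Libraries held between 19616312 and 25217030 estimated counts, and the members were covered by 109 counts (Cdkn1a in 1 normal rat) to 2558 counts (Gadd45a in 1 SIN (20 mg/kg) rat). Levels are in CPM, which are counts relative to the size of each library after TMM scaling of the 16 rats. The proximal tubule markers Slc34a1 (lowest group mean 4090 CPM, SIN (20 mg/kg)) and Lrp2 were abundant in every group, as was Umod of the loop of Henle, while Krt20 was at 0 in several rats. Among the DN rats, replicate 3 stood apart in 9 markers of stroma, smooth muscle and urothelium, whose sum was 657 CPM in this rat and at most 284 CPM in any other, so the counts of calls in DN are also given without it. Library numbers ran on without a break inside each group, so any effect of library preparation and the condition cannot be told apart. In whole tissue, fewer cells of a type and less RNA per cell cannot be told apart either. How litters and cages were shared among the groups is not given in the sources used here, and p-values measure the spread between these rats.

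Promoters of 7 members, from 250 bases before to 50 bases after the start of the gene, were available from RefSeq (build GRCr8), with none for Bax and Zmat3. The p53 response element, 2 half-sites of 10 letters with up to 13 bases between them, was searched on both strands with at most 1 mismatch and with the central C and G of each half-site kept. It was found in 3 of the 7 promoters (Cdkn1a, Gadd45a and Ccng1) and in 154 of 27457 promoters of this length, or 0.561%. These 3 are printed because they are the members whose windows hold a match, with the half-sites in capitals. The Cdkn1a window is chr20:7150682-7150981 on the plus strand, the Gadd45a window chr4:97486750-97487049 on the minus strand and the Ccng1 window chr10:25684827-25685126 on the minus strand.
Cdkn1a: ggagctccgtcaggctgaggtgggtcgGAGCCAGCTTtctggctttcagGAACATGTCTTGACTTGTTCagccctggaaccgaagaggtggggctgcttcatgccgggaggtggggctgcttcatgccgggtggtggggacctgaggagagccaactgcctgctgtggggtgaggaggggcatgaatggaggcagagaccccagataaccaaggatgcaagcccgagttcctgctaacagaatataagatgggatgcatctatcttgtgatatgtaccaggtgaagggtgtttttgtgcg
Gadd45a: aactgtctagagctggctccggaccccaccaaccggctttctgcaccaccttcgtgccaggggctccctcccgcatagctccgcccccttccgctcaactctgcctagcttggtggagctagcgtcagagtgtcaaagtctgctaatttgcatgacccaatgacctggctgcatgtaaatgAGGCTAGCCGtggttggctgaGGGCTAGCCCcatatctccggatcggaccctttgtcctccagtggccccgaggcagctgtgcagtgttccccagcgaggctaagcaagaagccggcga
Ccng1: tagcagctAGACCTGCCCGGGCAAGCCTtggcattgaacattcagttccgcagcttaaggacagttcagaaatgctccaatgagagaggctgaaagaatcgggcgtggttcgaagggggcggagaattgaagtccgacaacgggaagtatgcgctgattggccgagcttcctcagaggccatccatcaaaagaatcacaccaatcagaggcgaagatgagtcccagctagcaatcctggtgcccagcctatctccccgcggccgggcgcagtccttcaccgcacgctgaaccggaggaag
In Cdkn1a the half-sites GAACATGTCT and TGACTTGTTC adjoin one another at bases -201 to -182, and the first of them pairs with a further half-site 12 bases upstream. In Gadd45a the half-sites are 11 bases apart at bases -69 to -39, and in Ccng1 they adjoin at bases -242 to -223. No match was found in the windows of Mdm2, Sesn1, Btg2 and Phlda3, which says nothing of sites outside these 300 bases. The E-box CACGTG, a site of clock factors, was absent from all 7 windows and present in 6.65% of all promoters. The GC box GGGCGG was present in Gadd45a, Ccng1, Mdm2, Sesn1, Btg2 and Phlda3 and in 34.9% of all promoters, and TATAA was present in Cdkn1a and in 26.1% of all promoters.

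In the normal kidney, per kilobase of gene length, Gadd45a was the most abundant of the 9 with 70.4 ± 9.72 CPM per kb (SD, n = 4). It was followed by Ccng1 with 31.2 ± 6.10 and Bax with 26.1 ± 4.60 CPM per kb, which lay within their spread of each other. Mdm2 with 15.3 ± 0.647, Sesn1 with 13.6 ± 0.857, Btg2 with 13.4 ± 2.92, Zmat3 with 13 ± 0.822 and Cdkn1a with 10.4 ± 3.58 CPM per kb formed a middle range. Of the neighbours in it, only Mdm2 and Sesn1 were further apart than the larger of their SDs. Phlda3 was the least abundant with 6.71 ± 1.01 CPM per kb. In DN, Cdkn1a with 19.2 ± 3.38 CPM per kb stood above Mdm2 with 14.7 ± 0.730 CPM per kb by more than its SD. Phlda3 with 18.5 ± 5.72 CPM per kb lay within its spread of both genes, and Ccng1 with 43.9 ± 7.47 CPM per kb was level with Gadd45a at 41.8 ± 5.30 CPM per kb.

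The DN and normal groups differed in opposite directions among the members. Phlda3 rose, Cdkn1a was higher without a test, Gadd45a was lower without a test, and Mdm2 differed by -0.06 ± 0.08 (log2 fold change ± SE). Of the 6 members tested, 1 passed at an adjusted p under 0.05, against 19.5% of all 15775 genes, and 1 passed without DN replicate 3, where 2586 of 15966 genes were called. At an unadjusted p under 0.05 there were 3 of 6 (36.9% of all genes), and with DESeq2 2 of 6 passed (28.3%). The groups did not overlap in 3 of 9 members, against 24.3% of all genes, and the median log2 fold change over the 9 members was -0.06, beside 0.0016 over all genes. Of these 3, Cdkn1a and Gadd45a were picked on values that include the same DN rats, so the count of groups without overlap is a description.

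**Figure D1:**
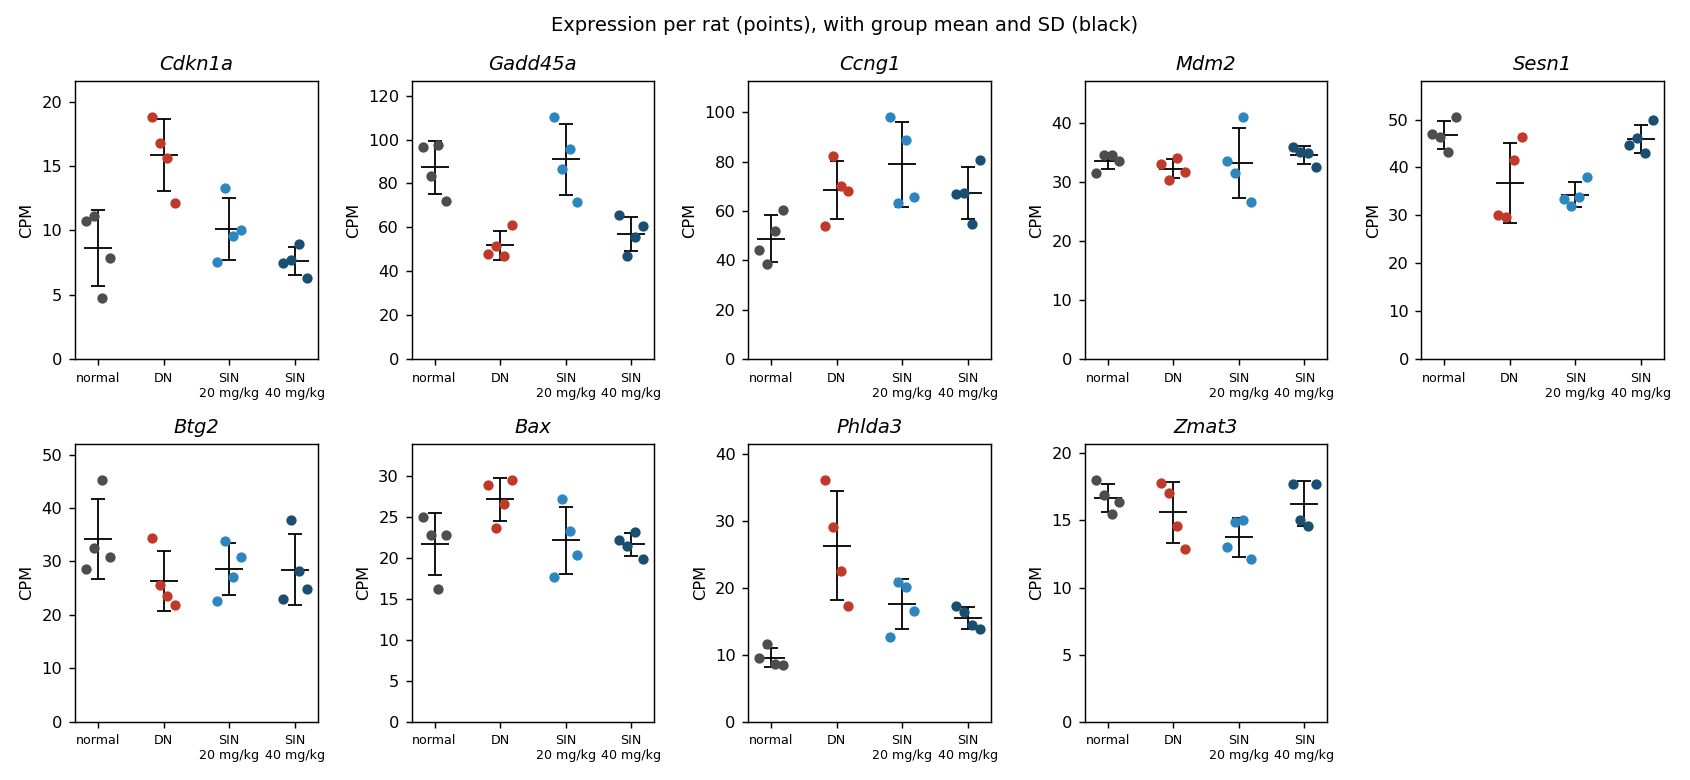
CPM of the 9 members (vertical axes, from 0) in each rat of the 4 groups, with the group mean and SD in black. All 4 DN rats are above all normal rats for Cdkn1a and Phlda3 and below them for Gadd45a, while Mdm2 stays between 26.6 and 40.9 CPM in all 16 rats.

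Phlda3 (ENSRNOG00000009068) encodes a small protein that competes with the kinase Akt for membrane lipids and so represses it. It was measured at 9.57, 11.6, 8.60 and 8.44 CPM in the normal rats and at 36.1, 29.1, 22.5 and 17.3 CPM in the DN rats. All DN rats were above all normal rats, and the DN rats differed among themselves by more than the normal rats did. The mean rose from 9.54 ± 1.44 to 26.3 ± 8.14 CPM (SD, n = 4), a 2.75-fold difference with a log2 fold change of 1.46 ± 0.22 (SE) and an adjusted p of 0.0053. The call held in each of the 8 fits that left out 1 rat, with adjusted p up to 0.0237 (without normal replicate 4).

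The mean of Phlda3 in both SIN groups lay between those of the normal and DN groups. The SIN (20 mg/kg) rats had 12.7, 20.9, 20.1 and 16.6 CPM, and the SIN (40 mg/kg) rats had 17.3, 16.4, 14.5 and 13.9 CPM. Every SIN rat was above every normal rat. Over normal, Phlda3 rose with SIN (20 mg/kg) by a log2 fold change of 0.88 ± 0.18 (adjusted p = 0.0177) and with SIN (40 mg/kg) by 0.71 ± 0.14 (adjusted p = 0.0165). The first call was lost without normal replicate 3 (0.0552), normal replicate 4 (0.0611), SIN (20 mg/kg) replicate 2 (0.0568) or replicate 3 (0.0589), all adjusted p of the same test. The second was lost without normal replicate 4 (0.0621) or SIN (40 mg/kg) replicate 2 (0.0574) and with all 16 rats in 1 fit (0.0519). Against DN, given as a description, the log2 difference was -0.58 ± 0.23 with SIN (20 mg/kg), where the groups overlapped, and -0.75 ± 0.21 with SIN (40 mg/kg), where the highest SIN rat (17.28 CPM) lay just under the lowest DN rat (17.35 CPM).

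Cdkn1a (ENSRNOG00000000521), whose protein p21 blocks cyclin dependent kinases, had the largest contrast between DN and SIN (40 mg/kg) among the members, a property close to the one it was picked for. The normal rats had 10.7, 11.1, 4.76 and 7.82 CPM and the DN rats 18.8, 16.8, 15.6 and 12.2 CPM. The SIN (20 mg/kg) rats had 7.54, 13.3, 9.59 and 10.03 CPM and the SIN (40 mg/kg) rats 7.44, 7.73, 8.96 and 6.31 CPM. The DN rats were above all normal and all SIN (40 mg/kg) rats, whereas the highest SIN (20 mg/kg) rat was above the lowest DN rat. The means were 8.60 ± 2.95, 15.8 ± 2.79, 10.1 ± 2.38 and 7.61 ± 1.09 CPM from normal through DN and the lower to the higher dose. The log2 fold change was 0.88 ± 0.25 for DN over normal, -0.65 ± 0.19 for SIN (20 mg/kg) over DN and -1.05 ± 0.17 for SIN (40 mg/kg) over DN. Between SIN (40 mg/kg) and normal the difference was -0.17 ± 0.25, smaller than its error.

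The 4 DN rats stood in the same order for Cdkn1a and Phlda3, from 18.8 CPM with 36.1 CPM down to 12.2 CPM with 17.3 CPM. This order was not particular to the pair. Btg2 (34.4 down to 21.8 CPM) and Zmat3 (17.8 down to 12.9 CPM) had it too, and neither was higher in DN than in normal. The SIN (40 mg/kg) rats lay within the normal range of Cdkn1a, 4.76 to 11.1 CPM, but above that of Phlda3, which was at most 11.6 CPM in normal rats and at least 13.9 CPM in SIN (40 mg/kg) rats. Both genes thus stood high in DN, and at 40 mg/kg only Phlda3 was separate from normal.

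**Figure D2:**
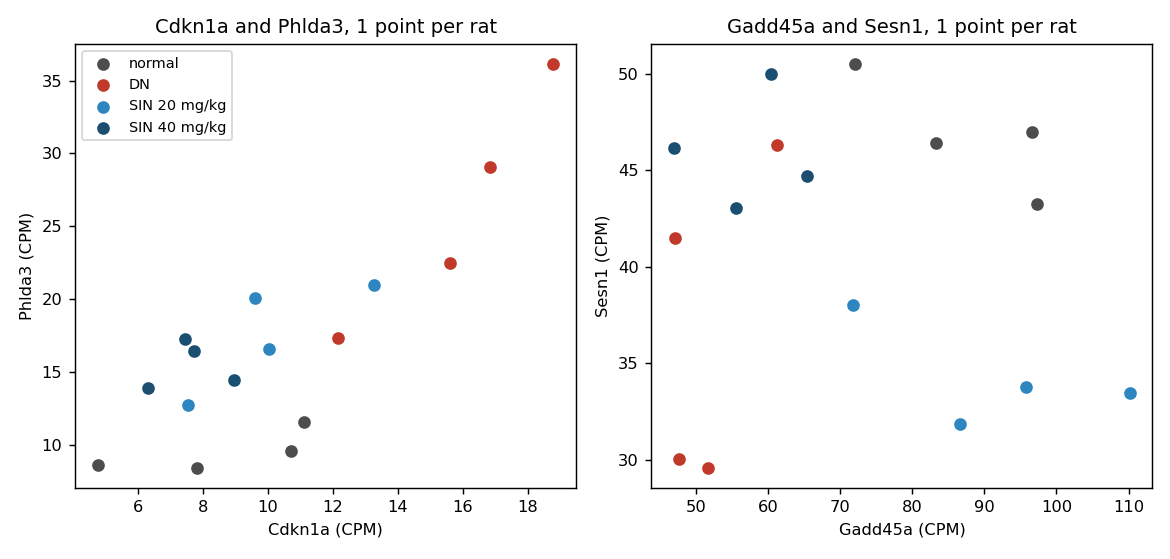
Phlda3 against Cdkn1a (left) and Sesn1 against Gadd45a (right), in CPM on linear axes that do not start at 0, with 1 point per rat coloured by group. At the same Cdkn1a the SIN (40 mg/kg) rats have more Phlda3 (13.9 to 17.3 CPM) than the normal rats (8.44 to 11.6 CPM), and the SIN (20 mg/kg) rats combine high Gadd45a with low Sesn1.

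Gadd45a (ENSRNOG00000005615), a stress sensor that binds cell cycle kinases and takes part in DNA repair, ran the other way from Cdkn1a in DN. It was at 96.7, 83.3, 97.3 and 72 CPM in the normal rats and at 47.7, 51.6, 47.0 and 61.3 CPM in the DN rats, every one of them below every normal rat. The SIN (20 mg/kg) rats had 110.2, 86.7, 95.7 and 71.7 CPM, as high as normal and all above DN. The SIN (40 mg/kg) rats had 65.4, 47.0, 55.5 and 60.5 CPM, all below normal and below SIN (20 mg/kg), and overlapping DN. The log2 fold change was -0.75 ± 0.13 for DN over normal, 0.81 ± 0.14 for SIN (20 mg/kg) over DN and 0.15 ± 0.13 for SIN (40 mg/kg) over DN. The lower dose was thus near normal and the higher dose near DN, a difference between the doses of -0.67 ± 0.15 given as a description.

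Sesn1 (ENSRNOG00000000302), a stress induced inhibitor of the growth kinase complex mTORC1, had another order. The normal rats had 47.0, 46.4, 43.3 and 50.5 CPM and the DN rats 30.0, 29.6, 41.5 and 46.3 CPM. The DN rats split into a lower and a higher pair, and 1 rat of the higher pair was inside the normal range. The SIN (20 mg/kg) rats had 33.5, 31.9, 33.8 and 38.0 CPM, all below normal, and the SIN (40 mg/kg) rats had 44.7, 46.1, 43 and 49.99 CPM, all above SIN (20 mg/kg). The log2 fold change was -0.35 ± 0.15 for DN over normal, -0.45 ± 0.09 for SIN (20 mg/kg) over normal, -0.02 ± 0.08 for SIN (40 mg/kg) over normal and 0.34 ± 0.15 for SIN (40 mg/kg) over DN. At 20 mg/kg Gadd45a was therefore near normal and Sesn1 below it. At 40 mg/kg Sesn1 was near normal and Gadd45a below it. Both genes were picked on values in these rats, so this is a description.

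Ccng1 (ENSRNOG00000003256), which encodes cyclin G1 and feeds back on Mdm2 and p53, was higher in all 3 STZ groups. The normal rats had 44.1, 38.5, 52.0 and 60.4 CPM, the DN rats 53.8, 82.2, 70.3 and 68.0 CPM, the SIN (20 mg/kg) rats 98.1, 63.2, 88.8 and 65.8 CPM and the SIN (40 mg/kg) rats 66.8, 67.2, 54.9 and 80.9 CPM. Only the SIN (20 mg/kg) rats were all above the normal rats. Over normal, the log2 fold change was 0.49 ± 0.16 in DN (adjusted p = 0.0626), 0.70 ± 0.18 with SIN (20 mg/kg) (adjusted p = 0.0480) and 0.47 ± 0.16 with SIN (40 mg/kg) (adjusted p = 0.109), so that the rise passed with SIN (20 mg/kg). That call held in 1 of 8 fits that left out 1 rat, the one without normal replicate 4 (adjusted p = 0.0475), and reached 0.123 without SIN (20 mg/kg) replicate 3, the highest of them. The others were 0.118, 0.0995 and 0.0858 without normal replicates 1, 2 and 3 and 0.0788, 0.0503 and 0.0569 without SIN (20 mg/kg) replicates 1, 2 and 4. DESeq2 gave an adjusted p of 0.0245 in DN and 0.0446 with SIN (40 mg/kg).

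The remaining members did not pass in any comparison they were tested in. Mdm2 (ENSRNOG00000006304) had group means of 33.5 ± 1.42, 32.2 ± 1.60, 33.2 ± 5.93 and 34.6 ± 1.48 CPM from normal to SIN (40 mg/kg), with adjusted p of 0.642, 0.966 and 0.764 against normal. The spread was widest in the SIN (20 mg/kg) rats, from 26.6 to 40.9 CPM. Bax (ENSRNOG00000020876), the pore former of mitochondrial cell death, was 0.33 ± 0.14 higher in DN than in normal on the log2 scale (adjusted p = 0.125), with 28.9, 23.7, 26.7 and 29.6 CPM in DN and 25.0, 22.8, 16.2 and 22.9 CPM in normal rats. All 4 SIN (40 mg/kg) rats, from 19.9 to 23.2 CPM, lay below the DN rats, a log2 difference of -0.31 ± 0.10. Btg2 (ENSRNOG00000003300), an antiproliferative gene of the immediate early class, was -0.38 ± 0.18 from normal in DN (adjusted p = 0.162), and without normal replicate 3, which had 45.2 CPM, the difference was -0.21. Zmat3 (ENSRNOG00000010119), an RNA binding regulator of splicing, was lowest with SIN (20 mg/kg), at 12.1 to 15.0 CPM against 15.5 to 18.0 CPM in the normal rats, a log2 difference of -0.28 ± 0.12 (adjusted p = 0.213).

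**Figure D3:**
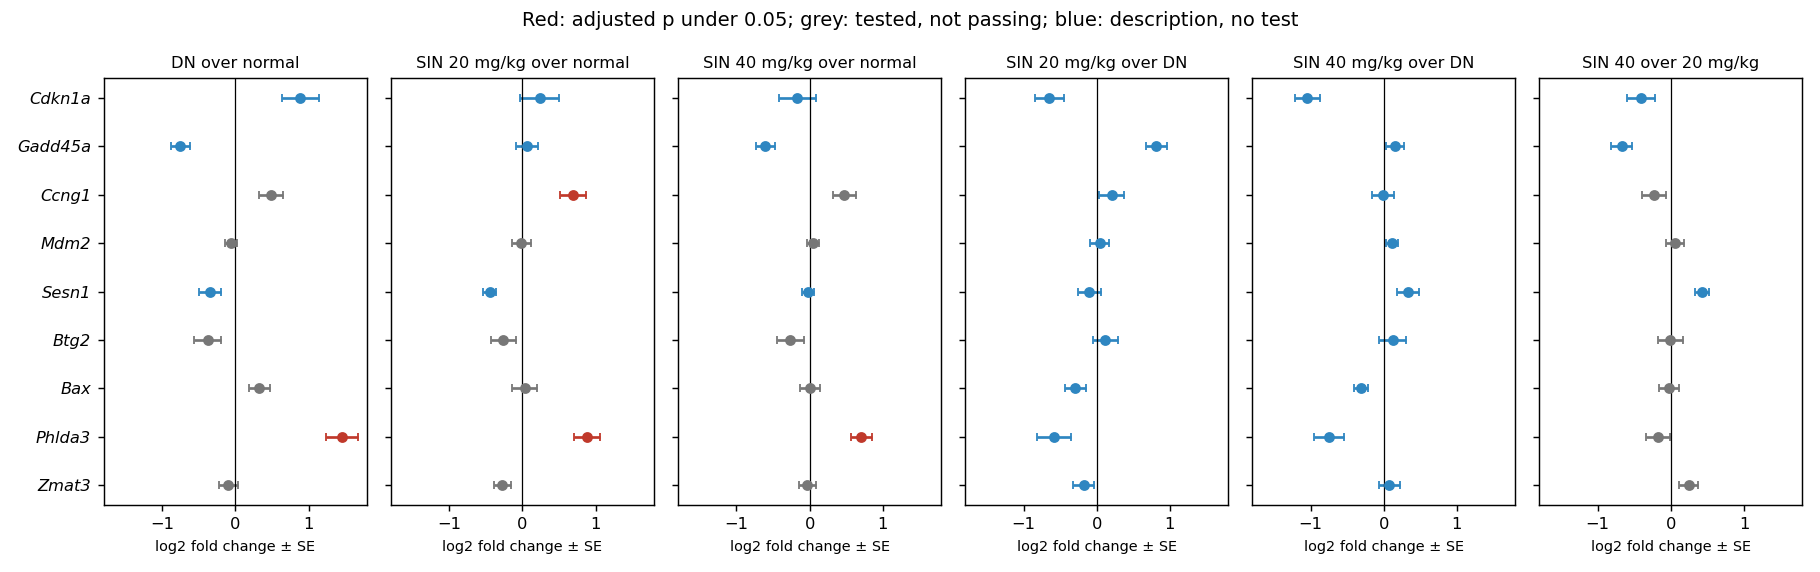
Log2 fold change with its SE (horizontal axes) of the 9 members in the 6 comparisons, in red where the adjusted p was under 0.05, grey where the test was not passed and blue where no test was made. Phlda3 is red in the 3 comparisons with normal, and Gadd45a changes side between the panels of SIN (20 mg/kg) over DN (0.81) and DN over normal (-0.75).

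With SIN (20 mg/kg) against normal, 2 of the 6 tested members passed (Ccng1 and Phlda3), against 6.36% of all 15877 genes, and 1 passed with SIN (40 mg/kg) (Phlda3), against 5.97% of 15735. At an unadjusted p under 0.05 there were 3 of 6 (20.8% of all genes) and 2 of 6 (22.9%), and DESeq2 called 2 of 6 (10.9%) and 2 of 6 (11.2%). The groups did not overlap in 4 of 9 members with SIN (20 mg/kg), namely Ccng1, Phlda3, Sesn1 and Zmat3, beside 13.6% of all genes, and in 2 of 9 with SIN (40 mg/kg), namely Phlda3 and Gadd45a, beside 13.9%. Sesn1 and Gadd45a were picked on values that include these SIN rats. These comparisons and that of DN share the 4 normal rats and are not independent of each other.

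Between SIN and DN no gene of the whole table passed at an adjusted p under 0.05, so 0 of 9 members did, against 0.0% of 15724 genes at 20 mg/kg and 0.0% of 15530 at 40 mg/kg. Of all genes, 15.4% and 17.1% had an unadjusted p under 0.05 at 20 and 40 mg/kg, and DESeq2 called 1.7% and 3.25%. Without DN replicate 3, edgeR called 0 genes at 20 mg/kg and 4 at 40 mg/kg, no member among them. The members were chosen on this contrast, so nothing is read from their counts in it, and both comparisons share the 4 DN rats. The groups did not overlap in Gadd45a alone at 20 mg/kg (8.85% of all genes) and in Cdkn1a, Phlda3 and Bax at 40 mg/kg (10.7%). Between the doses, 0 of the 6 tested members passed with edgeR, at an adjusted p under 0.05 (0.00639% of all genes, which is 1 gene of 15657) or an unadjusted p under 0.05 (4.98%), or with DESeq2 (0.109%). Across the doses the groups did not overlap in Gadd45a and Sesn1, 2 of 9 members, against 3.3% of all genes. Both are genes picked on their values in these rats.

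Among 14 tested genes for relatives and regulators of p53, 4 fell and none rose in DN, 28.6% of the list beside 19.5% of all genes. Those that fell were Mdm4, the Mdm2 relative that masks the p53 activation domain (-0.74 ± 0.16, adjusted p = 0.0164), the deubiquitinase Usp7 (-0.42 ± 0.09, 0.0168), the damage kinase Atm (-0.61 ± 0.19, 0.0464) and the ubiquitin ligase Cop1 (-0.38 ± 0.12, 0.0491). The list median was -0.18, and without DN replicate 3 there were 3 falls. Mdm4 fell from 35.5 ± 6.13 to 21.3 ± 3.44 CPM, with all DN rats below all normal rats. Its call was lost without normal replicate 3 or 4, that of Usp7 without normal replicate 4, and those of Atm and Cop1 held in 2 of 8 such fits each. In both SIN groups none of these genes passed against normal with edgeR, where an unadjusted p under 0.05 was reached by 3 of 14 genes at 20 mg/kg and 3 of 13 at 40 mg/kg and DESeq2 called 1 and 0. At 40 mg/kg against DN, Mdm4 was 0.55 ± 0.15 higher (adjusted p = 0.196) and Usp7 0.30 ± 0.09 higher (adjusted p = 0.202).

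Of 19 tested p53 targets for arrest, repair and metabolism outside the members, 4 rose and 2 fell in DN (31.6% of the list), with a list median of 0.28. Plk2, a stress induced polo-like kinase, rose from 6.43 ± 2.09 to 15.6 ± 2.79 CPM, a log2 fold change of 1.27 ± 0.23 (adjusted p = 0.0095). Gdf15, a secreted stress cytokine, rose from 8.28 ± 1.98 to 16.7 ± 2.24 CPM (1.01 ± 0.19, adjusted p = 0.0110). All 4 DN rats were above all normal rats for both, and both calls held in all 8 fits that left out 1 rat. Rps27l, a ribosomal protein gene (0.44 ± 0.10, adjusted p = 0.0199), and Fdxr, a mitochondrial electron carrier enzyme (0.65 ± 0.20, adjusted p = 0.0457), also rose. Rps27l resembles Rps27 closely enough that reads may have been split between them.

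Epha2, a receptor tyrosine kinase, fell in DN from 40.5 ± 5.15 to 27.2 ± 2.56 CPM (-0.57 ± 0.11, adjusted p = 0.0131), a call that held in all 8 fits that left out 1 rat. Rrm2b, the p53 dependent subunit of ribonucleotide reductase that supplies nucleotides for repair, fell from 41.9 ± 8.30 to 23.9 ± 5.37 CPM (-0.81 ± 0.19, adjusted p = 0.0219). The calls of Rps27l, Fdxr and Rrm2b held in 5, 1 and 4 of 8 such fits. Without DN replicate 3 the list had 4 rises and 2 falls as well. Known p53 targets were thus called on both sides of normal in the DN kidney.

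Plk2 stood at different levels in the SIN groups. With SIN (20 mg/kg) it was at 16.8 ± 2.08 CPM (1.38 ± 0.21 over normal, adjusted p = 0.0051), and with SIN (40 mg/kg) it was at 10.4 ± 1.78 CPM, below every DN rat (-0.57 ± 0.17, adjusted p = 0.200) and below every SIN (20 mg/kg) rat (-0.69 ± 0.15, adjusted p = 0.961). Neither of these differences passed over all genes. Gdf15 rose over normal with SIN (20 mg/kg) (0.70 ± 0.18, adjusted p = 0.0495), a call held in 1 of 8 fits that left out 1 rat and lost with all 16 rats in 1 fit (0.142). At 40 mg/kg it ranged from 9.69 to 30.3 CPM (1.07 ± 0.32 over normal, adjusted p = 0.0809). Epha2 fell below normal with SIN (40 mg/kg) too (-0.73 ± 0.17, adjusted p = 0.0359), in 2 of 8 such fits. In all, 2 of 19 genes rose with SIN (20 mg/kg) (10.5%, beside 6.36% of all genes). With SIN (40 mg/kg) 1 of 19 fell (5.26%, beside 5.97% of all genes). At an unadjusted p under 0.05, 6 genes were higher and 1 lower at the lower dose (20.8% of all genes). At the higher dose 5 were higher and 1 lower (22.9%). DESeq2 called 3 genes at each dose (10.9% and 11.2% of all genes).

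Of 12 tested p53 targets in cell death, 1 rose and 1 fell in DN (16.7%, median 0.07), and without DN replicate 3 there were 2 rises and 1 fall. Steap3, a metalloreductase of the endosome, rose from 8.49 ± 1.5 to 15.0 ± 2.87 CPM (0.82 ± 0.18, adjusted p = 0.0178), a call lost without normal replicate 4 or DN replicate 2. Tp53inp1, a stress protein of autophagy, fell from 24.8 ± 3.07 to 17.0 ± 3.93 CPM (-0.55 ± 0.17, adjusted p = 0.0447), which held in 1 of 8 such fits. In neither SIN group did any of the 12 genes pass against normal with edgeR, at an adjusted or an unadjusted p under 0.05, or with DESeq2. Aen, an exonuclease of apoptosis, was 0.37 ± 0.10 lower with SIN (40 mg/kg) than in DN (adjusted p = 0.187), with no overlap of the groups.

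**Figure D4:**
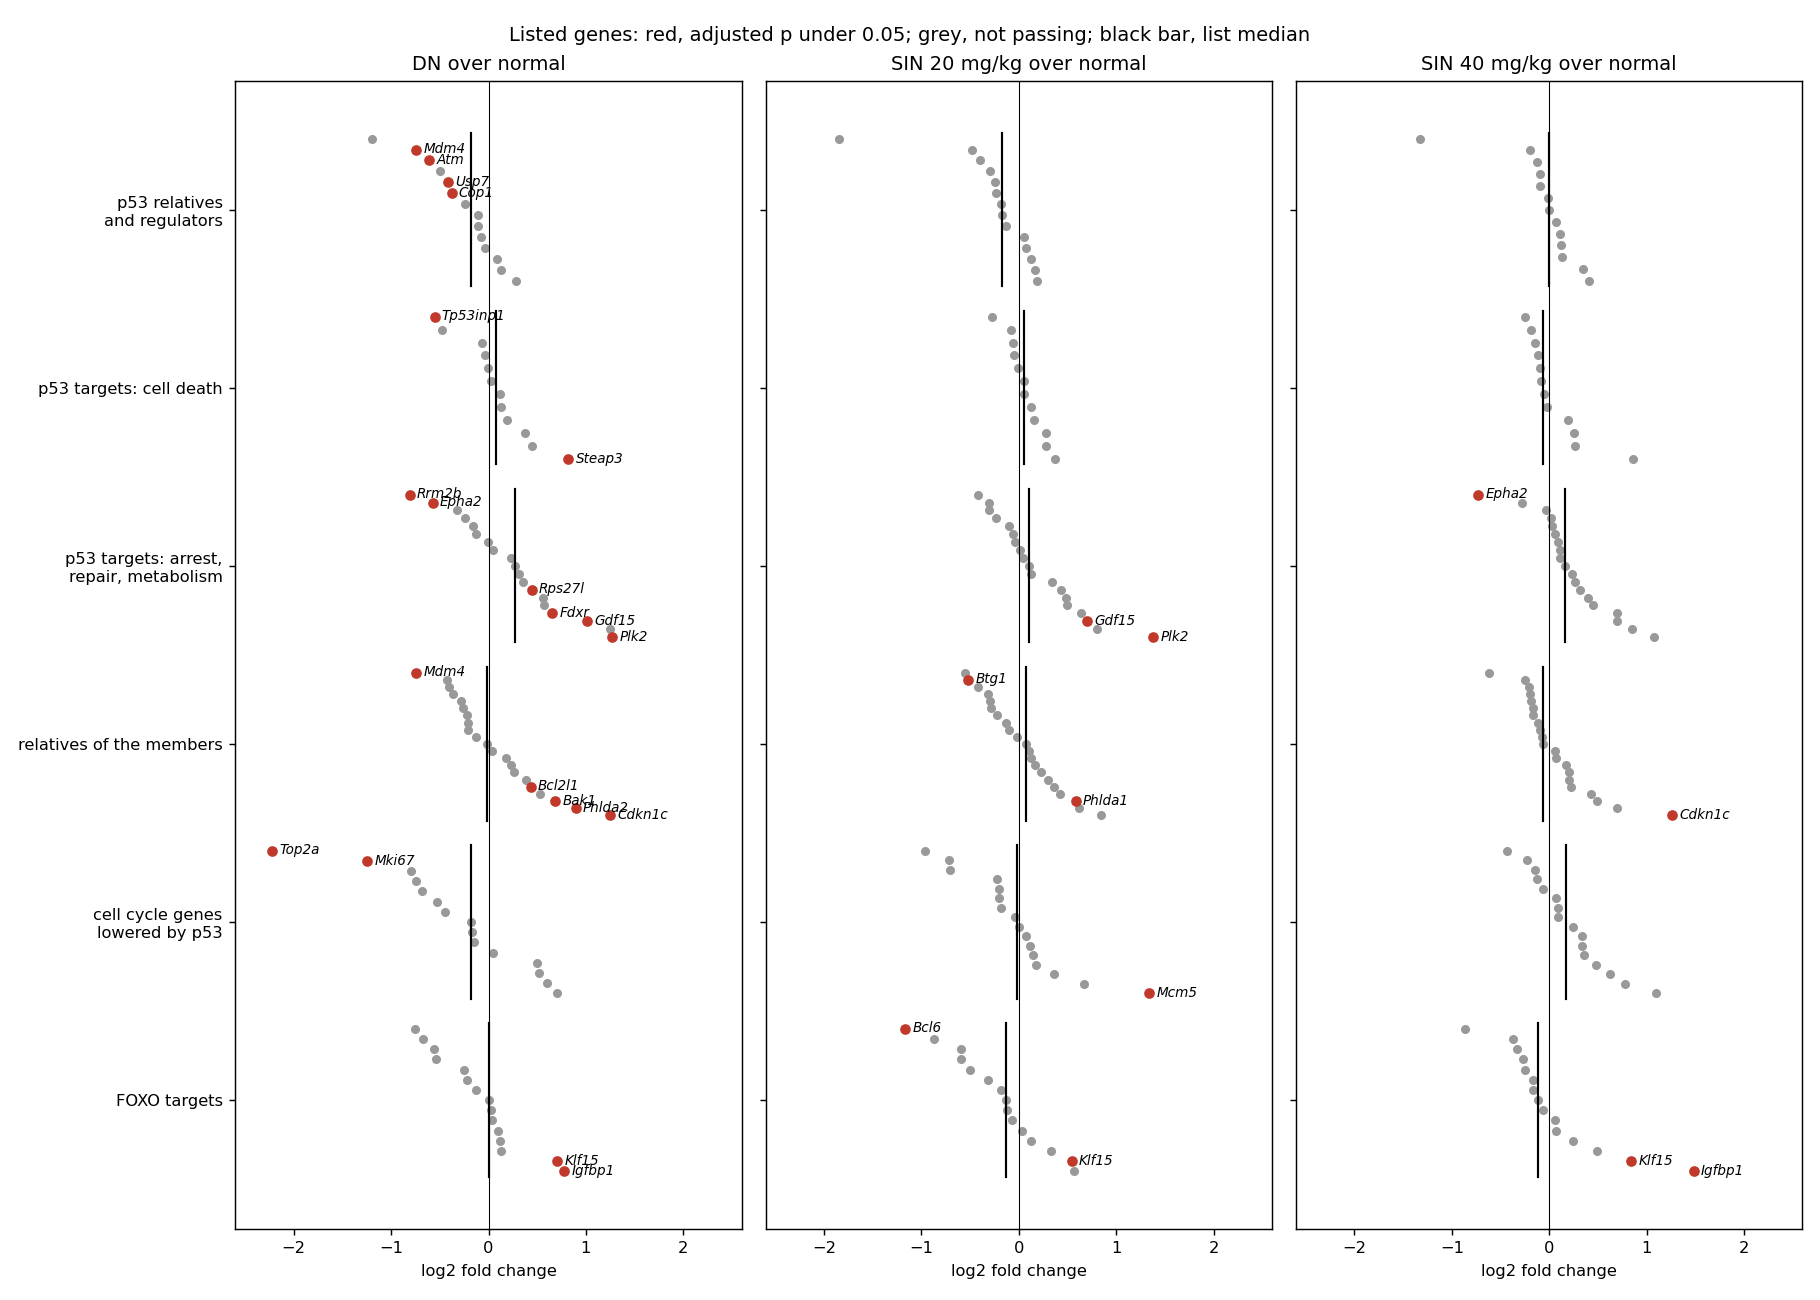
Log2 fold change (horizontal axes) of each tested gene in 6 lists, for the DN group and both SIN doses over normal, with called genes in red and named, the others in grey and the list median as a black bar. In DN called p53 targets lie on both sides of 0, from Rrm2b at -0.81 to Plk2 at 1.27, and fewer genes are called in the SIN panels.

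Among 21 tested relatives of the members, 4 rose and 1 fell in DN (23.8%, median -0.01). Cdkn1c, which encodes the kinase inhibitor p57 and is a relative of Cdkn1a, rose from 25.2 ± 7.22 to 59.9 ± 32.5 CPM (1.25 ± 0.33, adjusted p = 0.0310). Phlda2, a relative of Phlda3, rose from 5.61 ± 1.43 to 10.4 ± 1.52 CPM (0.89 ± 0.21, adjusted p = 0.0218). Bcl2l1, an inhibitor of Bax (0.43 ± 0.11, adjusted p = 0.0244), and Bak1, which forms pores as Bax does (0.68 ± 0.18, adjusted p = 0.0313), rose as well, and the one that fell was Mdm4. The counts were the same without DN replicate 3. These calls held in 4 (Cdkn1c), 7 (Phlda2), 4 (Bcl2l1) and 3 (Bak1) of 8 fits that left out 1 rat.

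Cdkn1c also rose with SIN (40 mg/kg) over normal, to 60.4 ± 13.7 CPM (1.27 ± 0.22, adjusted p = 0.0086), in all 8 such fits. Cdkn1a and its relative were thus apart at this dose, Cdkn1a within the normal range and Cdkn1c as high as in DN. With SIN (20 mg/kg) 1 relative rose over normal, Phlda1 (0.58 ± 0.13, adjusted p = 0.0263, in 2 of 8 fits), and 1 fell, Btg1 (-0.52 ± 0.12, adjusted p = 0.0365, in 1 of 8 fits).

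The 17 cell cycle genes that p53 lowers through p21 summed to 75.9 to 115 CPM per rat. In DN the most abundant of those tested were Pcna with a mean of 41.3 CPM and Mcm2 with 23.2 CPM, so the sum says little of the scarcer genes. In DN 2 of 15 tested genes fell and none rose (13.3%, beside 19.5% of all genes, median -0.18). At an unadjusted p under 0.05, 3 genes were higher and 4 lower (36.9% of all genes), and DESeq2 called 3 (28.3%). The sum of the list was 81.2 to 83.9 CPM in normal and 75.9 to 94.2 CPM in DN rats. Top2a, a topoisomerase of dividing cells, fell from 2.22 ± 0.426 to 0.473 ± 0.104 CPM (-2.22 ± 0.30, adjusted p = 0.0042), in all 8 fits that left out 1 rat. Without DN replicate 3, the falls that passed were those of Top2a and Ccna2, 2 of 16 genes tested. Mki67, the proliferation marker, fell from 2.11 ± 0.517 to 0.889 ± 0.328 CPM (-1.25 ± 0.36, adjusted p = 0.0401), in 0 of 8 such fits. With SIN (20 mg/kg) Mcm5, a subunit of the replicative helicase, rose over normal from 2.31 ± 0.307 to 5.87 ± 1.2 CPM (1.34 ± 0.21, adjusted p = 0.0058), in all 8 such fits, and no gene of the list passed with SIN (40 mg/kg), where Mcm5 was 1.10 ± 0.29 higher (adjusted p = 0.0539), an unadjusted p under 0.05 was reached by 3 genes and DESeq2 called 1.

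Sesn1 and Gadd45a are also known targets of FOXO factors, which insulin signalling holds out of the nucleus. Of 15 FOXO targets, 2 rose in DN (13.3%, beside 19.5% of all genes, median 0.0047), namely Klf15 (0.71 ± 0.14, adjusted p = 0.0128, in all 8 fits that left out 1 rat) and Igfbp1 (0.78 ± 0.24, adjusted p = 0.0456, in 1 of 8). At an unadjusted p under 0.05, 2 of the 15 were higher and 3 lower (36.9% of all genes), and DESeq2 called 5 (28.3%). The sum of the list was 7828 to 11785 CPM in normal and 4625 to 7913 CPM in DN rats. Most of it in DN was Pck1, with a mean of 4226 CPM, so the sum says little of the other genes. Without DN replicate 3 only Klf15 of the list passed. With SIN (20 mg/kg) Klf15 rose over normal (0.54 ± 0.13, adjusted p = 0.0407) and the repressor Bcl6 fell (-1.16 ± 0.25, adjusted p = 0.0223). With SIN (40 mg/kg) Klf15 (0.84 ± 0.13, adjusted p = 0.0053) and Igfbp1 (1.48 ± 0.31, adjusted p = 0.0206) rose. The calls with SIN (20 mg/kg) held in 2 (Klf15) and 4 (Bcl6) of 8 fits that left out 1 rat, and those with SIN (40 mg/kg) in 8 (Klf15) and 3 (Igfbp1). Between SIN and DN and between the doses no gene of these 6 lists passed with edgeR. An unadjusted p under 0.05 was reached by 14 of their 91 distinct tested genes for SIN (20 mg/kg) over DN (15.4% of all genes), 23 of 89 for SIN (40 mg/kg) over DN (17.1%) and 9 of 91 between the doses (4.98%), and DESeq2 called 1 gene in each. For SIN (20 mg/kg) over DN an unadjusted p under 0.05 was reached in the FOXO list by Pck1 (0.69 ± 0.20) and Sesn3 (0.35), which were higher, and by Irs2 (-0.72) and Trim63 (-0.89), which were lower, and DESeq2 called 1 of the 15.

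Over the 16 rats, the genes whose centred log2 CPM was closest to that of Cdkn1a were RGD1561113, Ggt1, Slc38a3, Vwa1 and Mxra7, with root mean square differences of 0.244, 0.254, 0.264, 0.270 and 0.284 among 13357 genes ranked, beside 0.514 for the variation of Cdkn1a itself. Ggt1, a brush border enzyme of the proximal tubule, averaged 627 CPM in normal, 908 in DN, 629 with SIN (20 mg/kg) and 563 with SIN (40 mg/kg). Slc38a3, a glutamine transporter of the same cells, averaged 231, 381, 209.8 and 210.4 CPM in that order. Of the other members Bax ranked 111 and Phlda3 492 in likeness to Cdkn1a, and Zmat3, the next, ranked 5457.

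For Gadd45a (own variation 0.402) the closest were Myef2, Ccdc113, Mocs2, Hnrnpm and Arl14ep, at 0.197 to 0.222. Hnrnpm, a splicing factor, averaged 89.7, 63.0, 87.3 and 69.9 CPM from normal to SIN (40 mg/kg). For Sesn1 (own variation 0.256) the closest were Fam117b, Coa7, Ube2b, Stmn1 and Ripk1, at 0.137 to 0.159. None of these 15 genes is a member, and the rats and libraries behind the values are the same for all. The nearest member was Mdm2 for both Gadd45a (rank 3286, difference 0.406) and Sesn1 (rank 2070, difference 0.273). Both differences were larger than the variation of the gene itself.

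Other lists moved with the same groups. Of the core clock genes, whose level depends on the time of day, 5 of 14 rose and 3 fell in DN, 9 of 15 rose and 2 fell with SIN (20 mg/kg), and 10 of 15 rose and 3 fell with SIN (40 mg/kg), all over normal. Without DN replicate 3, 4 of 14 rose and 3 fell in DN. Arntl averaged 38.4 CPM in normal, 16.8 in DN, 4.08 with SIN (20 mg/kg) and 5.62 with SIN (40 mg/kg). Cdkn1a is known to be under clock control in other settings, the hour at which tissue was taken is not given in the sources used here, and the part of clock time in the values above was not tested.

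Markers of kidney cell types were counted as well. None of 6 proximal tubule markers passed against normal in any group with edgeR or DESeq2 (at an unadjusted p under 0.05 there were 2 in DN, 3 with SIN (20 mg/kg) and 1 with SIN (40 mg/kg)), and their sum was 7304 to 10935 CPM in normal and 6055 to 10162 CPM in DN rats. Of 8 rows for loop, distal tubule and collecting duct, Umod fell in DN (-0.77), with SIN (20 mg/kg) (-0.76) and with SIN (40 mg/kg) (-1.06), and Calb1 and Aqp3 rose with SIN (40 mg/kg). An unadjusted p under 0.05 was reached by 5, 6 and 5 of the 8 rows in DN, at the lower and at the higher dose, DESeq2 called 3, 6 and 5, and the medians were 0.59, 0.62 and 0.99 over normal. Their sum was 4268 to 5748 CPM in normal, 3013 to 5356 in DN, 4059 to 4993 with SIN (20 mg/kg) and 3734 to 4949 with SIN (40 mg/kg). None of 4 podocyte markers passed against normal in any group with edgeR or DESeq2, with 0, 2 and 0 at an unadjusted p under 0.05 in DN, at the lower and at the higher dose. Of 4 tubule injury markers tested, Havcr1 rose in DN (2.23) and with SIN (20 mg/kg) (3.63), and Vcam1 fell in DN (-0.98) and with SIN (40 mg/kg) (-0.83), with list medians of 0.97, 1.43 and 1.33 over normal. The sum over this list was 136 to 508 CPM in normal, 321 to 992 in DN, 549 to 1858 with SIN (20 mg/kg) and 257 to 1207 with SIN (40 mg/kg). Most of it in DN was Spp1, with a mean of 637 CPM beside 4.99 CPM for Havcr1 and 14.4 CPM for Vcam1. The sum therefore says little of the scarcer markers. Of 5 leukocyte markers, Ptprc fell in DN (-0.81) and Cd3e with SIN (40 mg/kg) (-1.24), and none of the stroma, smooth muscle and urothelium markers passed with edgeR, where an unadjusted p under 0.05 was reached by 3, 0 and 1 of them in DN, at the lower and at the higher dose, and DESeq2 called 0, 0 and 1. Of these calls, those of Ptprc, Cd3e, Calb1 and Aqp3 held in 2, 1, 4 and 2 of 8 fits that left out 1 rat, and that of Havcr1 in 4 of 8 for DN and 4 of 8 for SIN (20 mg/kg). Without DN replicate 3 the calls in DN were those of Umod, Havcr1, Vcam1 and Ptprc as before, joined by falls of Slc5a12 of the proximal tubule and Dcn of the stroma. The part of these shifts in the members' values was not tested.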

How the data were processed

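The authors isolated polyadenylated RNA from kidney, sequenced it as read pairs, used SeqPrep and Sickle for trimming and aligned reads to the Ensembl rat genome Rnor_6.0; the submitters' processing notes name TopHat, Bowtie, RSEM and edgeR, without their roles. The authors deposited estimated counts per gene and library (expected counts, of which 86.2% were exactly whole, zeros included, and 74.3% of those above 0), with gene lengths in bases, the other kind of value used. Counts were rounded. Values of 4 libraries that no sample record names, and the authors' group means, were not used.

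Counts were tested with edgeR 4.0.16 (quasi-likelihood, TMM, filterByExpr) in R 4.3.3, in a separate fit of each 2 groups, two-sided, with Benjamini-Hochberg adjustment over all genes tested and a threshold of 0.05. SEs are the absolute log2 fold change over the square root of F. CPM used TMM factors over 16 rats, and likeness used log2 CPM with a prior count of 2 for genes of at least 1 CPM on average. Alternatives were DESeq2 1.42.0, RLE, no filter, at least 10 counts in every rat, all 16 rats in 1 fit, a replicate block, an added log2 fold change of at least 1, and each rat left out. The steps were tested on simulated data.

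The members and the 13 gene lists (148 of 155 listed genes were in the table) were chosen with earlier results of these data known. Genes named are the members, up to 4 per list and comparison with the smallest adjusted p under 0.05 (otherwise up to 2 with the smallest p), and the 5 most like each of Cdkn1a, Gadd45a and Sesn1; not all are printed, and 3 listed genes are not reported here. Cop1, Rrm2b, Fdxr, Bak1, Ccna2, Pcna, Mcm2, Sesn3, Irs2 and Trim63, the Mcm5 and Gdf15 values with SIN (40 mg/kg), and the marker genes of the tissue check lie outside this rule and were picked once their values were known. Promoters came from the RefSeq table, and gene positions on Rnor_6.0 were not used here.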

Additional observations from a re-analysis of the deposited data

How the results depend on the processing

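Phlda3 in DN passed under all alternatives tried. Log2 fold changes were followed for the members and for every called gene of the 13 lists. These include clock genes and markers that are not named here. Of their values under alternatives, 1534 counted as unchanged, 230 lost the call, 3 gained it and 19 changed sign. For tested values, unchanged means the same direction and call. For values described without a test, it means a move of less than 1 SD of log2 CPM within the groups, whatever the sign. The 19 sign changes are therefore those of tested values only. The counts over all genes moved most. For DN with normal, 3074 genes were called in the main test, 1325 with the replicate block, 599 when a log2 fold change of 1 was also required, and 769 to 3781 when 1 rat was left out (769 without normal replicate 4, 987 without normal replicate 3, 1308 without DN replicate 2, 1602 without DN replicate 1 and 1622 without normal replicate 1). For SIN (20 mg/kg) with normal, the main count of 1009 became 1726 with DESeq2, 394 with that added requirement, and 551 to 1230 when 1 rat was left out (551, 582 and 650 without SIN (20 mg/kg) replicates 2, 3 and 4, 555 without normal replicate 4 and 668 without normal replicate 3). For SIN (40 mg/kg) with normal, 940 became 1761 with DESeq2, 388 with the same requirement, and 462 to 1016 when 1 rat was left out (462 and 533 without SIN (40 mg/kg) replicates 2 and 3, 490, 574 and 626 without normal replicates 4, 1 and 3). Between the doses, 1 gene became 17 with DESeq2, 0 with all 16 rats in 1 fit, 0 with the replicate block and 0 to 5 when 1 rat was left out. For SIN (20 mg/kg) with DN, 0 genes became 221 with DESeq2, 2 with no filter, 2 with at least 10 counts in every rat and 13 with all 16 rats in 1 fit. For SIN (40 mg/kg) with DN, 0 became 436 with DESeq2, 9 with all 16 rats in 1 fit and 0 to 4 when 1 rat was left out. The 3781 genes of DN with normal were those called without normal replicate 2. Counts with the added requirement are lower by construction. For fits without a rat and for the other alternatives, the cause of the difference was not tested.

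Of the members, DESeq2 called 2 of 6 in DN with normal, 2 of 6 in SIN (40 mg/kg) with normal, 1 of 9 in SIN (20 mg/kg) with DN and 2 of 9 in SIN (40 mg/kg) with DN, the contrast used to choose them, so that these counts support nothing. The fit of all 16 rats called 0 of 6 in SIN (40 mg/kg) with normal and 1 of 9 in SIN (20 mg/kg) with DN. With a required log2 fold change of 1, 0 of 6 members were called in SIN (20 mg/kg) and 0 of 6 in SIN (40 mg/kg) with normal. Leaving out 1 rat gave 1 to 2 calls in DN, 0 to 1 with SIN (20 mg/kg) and 0 to 1 with SIN (40 mg/kg) over normal, and the members whose groups did not overlap numbered 3 to 5 in DN with normal, 2 to 3 in SIN (40 mg/kg) with normal, 2 to 3 between the doses, 1 to 3 in SIN (20 mg/kg) with DN and 3 to 4 in SIN (40 mg/kg) with DN. A count of groups without overlap can only stay or rise when a rat is left out. Its ranges therefore say nothing of how firm it is, and they include the members picked by value.

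Replicate numbers did not pair the rats: deviations from the group means correlated between same-numbered rats at -0.24 to 0.24 (2 of 24 pairs over 0.1). The replicate block called 1 of 6 members with SIN (20 mg/kg) over normal, since Ccng1 then had an adjusted p of 0.0548, and changed no other call on a member. Of 20 listed genes called in DN, 8 passed with the block, 16 with all 16 rats in 1 fit and 20 with DESeq2. Of 7 called with SIN (20 mg/kg) over normal, 5 passed with the block (not Btg1, adjusted p = 0.0710, or Klf15, 0.0733). In 1 fit of all 16 rats 4 passed (not Gdf15, 0.142, Bcl6, 0.0622, or Btg1, 0.107), and 7 with DESeq2. The 4 with SIN (40 mg/kg) passed in each test. Clock genes and markers were not counted.

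Signs of the members changed where values were near 0. Leaving out 1 rat, the log2 fold change with SIN (20 mg/kg) over normal ran from -0.046 to 0.16 for Gadd45a, -0.13 to 0.079 for Mdm2 and -0.085 to 0.12 for Bax. With SIN (40 mg/kg) over normal it ran from -0.059 to 0.014 for Sesn1, -0.11 to 0.080 for Bax (-0.00036 with all 16 rats in 1 fit) and -0.081 to 0.020 for Zmat3. Between the doses it ran from -0.030 to 0.17 for Mdm2, -0.17 to 0.084 for Btg2 and -0.12 to 0.083 for Bax. With SIN (20 mg/kg) over DN it ran from -0.073 to 0.13 for Mdm2 and -0.19 to 0.026 for Sesn1, and with SIN (40 mg/kg) over DN from -0.13 to 0.094 for Ccng1, -0.055 to 0.26 for Btg2 and -0.010 to 0.13 for Zmat3. The members had at least 109 counts in each rat, whereas scarce listed genes such as Top2a, at 0.473 CPM in DN, rested on few counts.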
